A study of Homo sapiens with 6 samples.

Results

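The genes described here are 9 genes of epithelial splicing and cell junctions, ESRP1, ESRP2, EPCAM, CDH1, KRT8, KRT18, KRT19, CLDN1 and CLDN7. They were chosen by name, with earlier results of these data known, from the 22604 genes of the deposited count table, and all 9 were listed in it. RNA-seq was performed on SKNMC, a Ewing sarcoma cell line that carries the EWS-FLI1 fusion, in 3 groups of 2 libraries. The groups were cells with an empty expression vector (EV), cells with V5-tagged wild-type NFIB (NFIB-WT) and cells with V5-tagged NFIB lacking its intrinsically disordered region (NFIB-ΔIDR). Every group was the same parental line, and the methods of the study describe lentiviral delivery with puromycin selection, with the NFIB cDNA amplified from the small cell lung cancer line NCI-H446. Which promoter drives the constructs is unknown here. NFIB is a transcription factor of the nuclear factor I family, and the comparisons ask how transcripts respond to it with and without its disordered region.

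Epithelial cells are held together by adherens junctions, built on the cadherin CDH1, and by tight junctions, whose strands are made of claudins such as CLDN1 and CLDN7. EPCAM is an adhesion glycoprotein of simple epithelia, and KRT8, KRT18 and KRT19 are the keratins of their intermediate filaments, in which KRT8, a type II keratin, pairs with the type I keratins KRT18 and KRT19. ESRP1 and ESRP2 are RNA-binding proteins that direct epithelial patterns of splicing, and the ZEB and SNAI repressors of epithelial-mesenchymal transition (EMT) bind E-boxes in the promoters of several of these genes.

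The RefSeq promoter table used here (GRCh38.p14) held promoters of KRT8, CLDN1 and CLDN7 and none of the other members. The 250 bases before the start of transcription are printed for these 3. Their transcripts took 3 courses in the libraries, KRT8 differing between both NFIB groups, CLDN1 being abundant at nearly one level throughout, and CLDN7 being close to 0. Capitals mark the E-box CACCTG or its reverse complement CAGGTG.
KRT8, chr12:52926470-52926719, minus strand: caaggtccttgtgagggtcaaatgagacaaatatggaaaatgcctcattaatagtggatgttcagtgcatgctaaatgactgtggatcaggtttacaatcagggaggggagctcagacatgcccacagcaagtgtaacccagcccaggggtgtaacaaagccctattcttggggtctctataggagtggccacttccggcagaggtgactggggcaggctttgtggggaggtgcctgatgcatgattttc
CLDN1, chr3:190322447-190322696, minus strand: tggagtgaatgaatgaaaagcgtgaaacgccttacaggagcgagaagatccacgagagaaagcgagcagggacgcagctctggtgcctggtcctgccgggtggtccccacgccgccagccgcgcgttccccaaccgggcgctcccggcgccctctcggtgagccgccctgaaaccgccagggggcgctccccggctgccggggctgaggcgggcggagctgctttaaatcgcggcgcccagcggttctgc
CLDN7, chr17:7262479-7262728, minus strand: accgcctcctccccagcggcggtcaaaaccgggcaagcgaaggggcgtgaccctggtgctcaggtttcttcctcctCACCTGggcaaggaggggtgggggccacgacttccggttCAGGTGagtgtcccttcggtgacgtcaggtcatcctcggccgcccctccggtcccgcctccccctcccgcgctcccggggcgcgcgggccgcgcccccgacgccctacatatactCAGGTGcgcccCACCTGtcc

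The CLDN7 sequence held 4 E-boxes, which start 174, 135, 20 and 9 bases before the transcription start. Of 35116 RefSeq promoters read over the same length, 17.5% held at least 1 such E-box and 0.464% held 3 or more. The KRT8 and CLDN1 sequences held none, nor did a second CLDN7 start (chr17:7263214-7263463). Only 1 start of KRT8 was available, other starts of that gene were not read, and which start these cells use was not tested. The short NFI motif TGGCA (or TGCCA), found in 41.0% of all promoters, occurred 1 time, at the second CLDN7 start, and the full palindrome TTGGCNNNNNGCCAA occurred in none of these 4 windows and in 10 of all promoters. These matches describe letters in a window and were not tested against the transcript levels.

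On hg19, GENCODE lifted to that build places ESRP1 on chromosome 8 (95653302 to 95719694, plus strand), ESRP2 on chromosome 16 (68262936 to 68272005, minus strand) and EPCAM on chromosome 2 (47572297 to 47614740, plus strand). CDH1 lies on chromosome 16 (68771195 to 68869440, plus strand), CLDN1 on chromosome 3 (190023496 to 190040235, minus strand) and CLDN7 on chromosome 17 (7163222 to 7167302, minus strand). KRT8 (53290971 to 53343738, minus strand) and KRT18 (53342655 to 53346690, plus strand) are neighbours on chromosome 12, and KRT19 lies on chromosome 17 (39679869 to 39684560, minus strand). In this annotation, which is not the one used for counting, the exons of KRT8 and KRT18 share 525 bases on opposite strands. Its exons cover 6881 bases for KRT8 and 3069 for KRT18, beside lengths of 2265 and 1535 bases in the RefSeq counts. Whether the counted models share any bases, and whether strand entered the counting, is not stated in any source used here.

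The libraries held 6664231 to 8465572 counts, so that 1 CPM, the unit of counts scaled to library size, stood for 6.66 to 8.47 counts. NFIB itself was at 176 and 145 CPM with EV, at 969 and 1051 CPM in NFIB-WT cells and at 2227 and 2332 CPM in NFIB-ΔIDR cells. Its transcript was thus 2.26-fold higher with NFIB-ΔIDR than with NFIB-WT (adjusted p = 0.000191, edgeR's quasi-likelihood test with Benjamini-Hochberg adjustment), and the amount of construct RNA and the loss of the disordered region cannot be told apart in the comparison of both constructs. The count differences within each pair of libraries exceeded sampling noise, with a chi-square per degree of freedom of 1.76 for EV, 8.56 for NFIB-WT and 1.58 for NFIB-ΔIDR, so the NFIB-WT libraries stood farther apart than the others. The Ewing sarcoma markers NKX2-2 (32.2 to 40.1 CPM) and NR0B1 (20.4 to 26.9 CPM), both known targets of EWS-FLI1, were present in every library.

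In EV cells the 9 genes spanned the range from among the most abundant transcripts to no counts at all. Per kilobase of the length listed in the count table, KRT18 stood at 140.0 ± 16.1 CPM (SD, n = 2) and CLDN1 at 137.0 ± 6.28 CPM, above 98.4% and 98.3% of all listed genes. These neighbours in the order differed by less than their spread. EPCAM followed at 4.06 ± 1.25 CPM per kilobase, KRT8 at 2.71 ± 0.175 and ESRP1 at 0.971 ± 0.352, above 61.3%, 56.4% and 44.8% of genes. EPCAM and KRT8 differed by little more than the SD of EPCAM, while ESRP1 lay below both. CLDN1 and KRT18 together held 96.07% to 98.1% of the counts of the 9 genes in each library.

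The remaining members were near the limit of detection. KRT19 had 3 and 6 counts with EV, 1 and 2 in NFIB-WT cells and 3 and 2 in NFIB-ΔIDR cells. ESRP2, the paralogue of ESRP1, had 1 and 1, 3 and 2, and 3 and 3 counts in the same order. CDH1, which encodes E-cadherin, had 1 and 0, 1 and 3, and 1 and 3 counts, and CLDN7 had 0 and 0, 0 and 2, and 3 and 1 counts. No library exceeded 6 counts for any of them, and 3 counts, the limit that a count of 0 allows, stood for 0.354 to 0.45 CPM. These 4 genes did not pass the filter on low counts and were not tested, so a change within these low counts was not assessed. The line thus carried much KRT18 and CLDN1 transcript with almost none of CDH1, ESRP2 and CLDN7. A mean over bulk cells cannot tell fewer expressing cells from less RNA per cell.

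**Figure D1:**
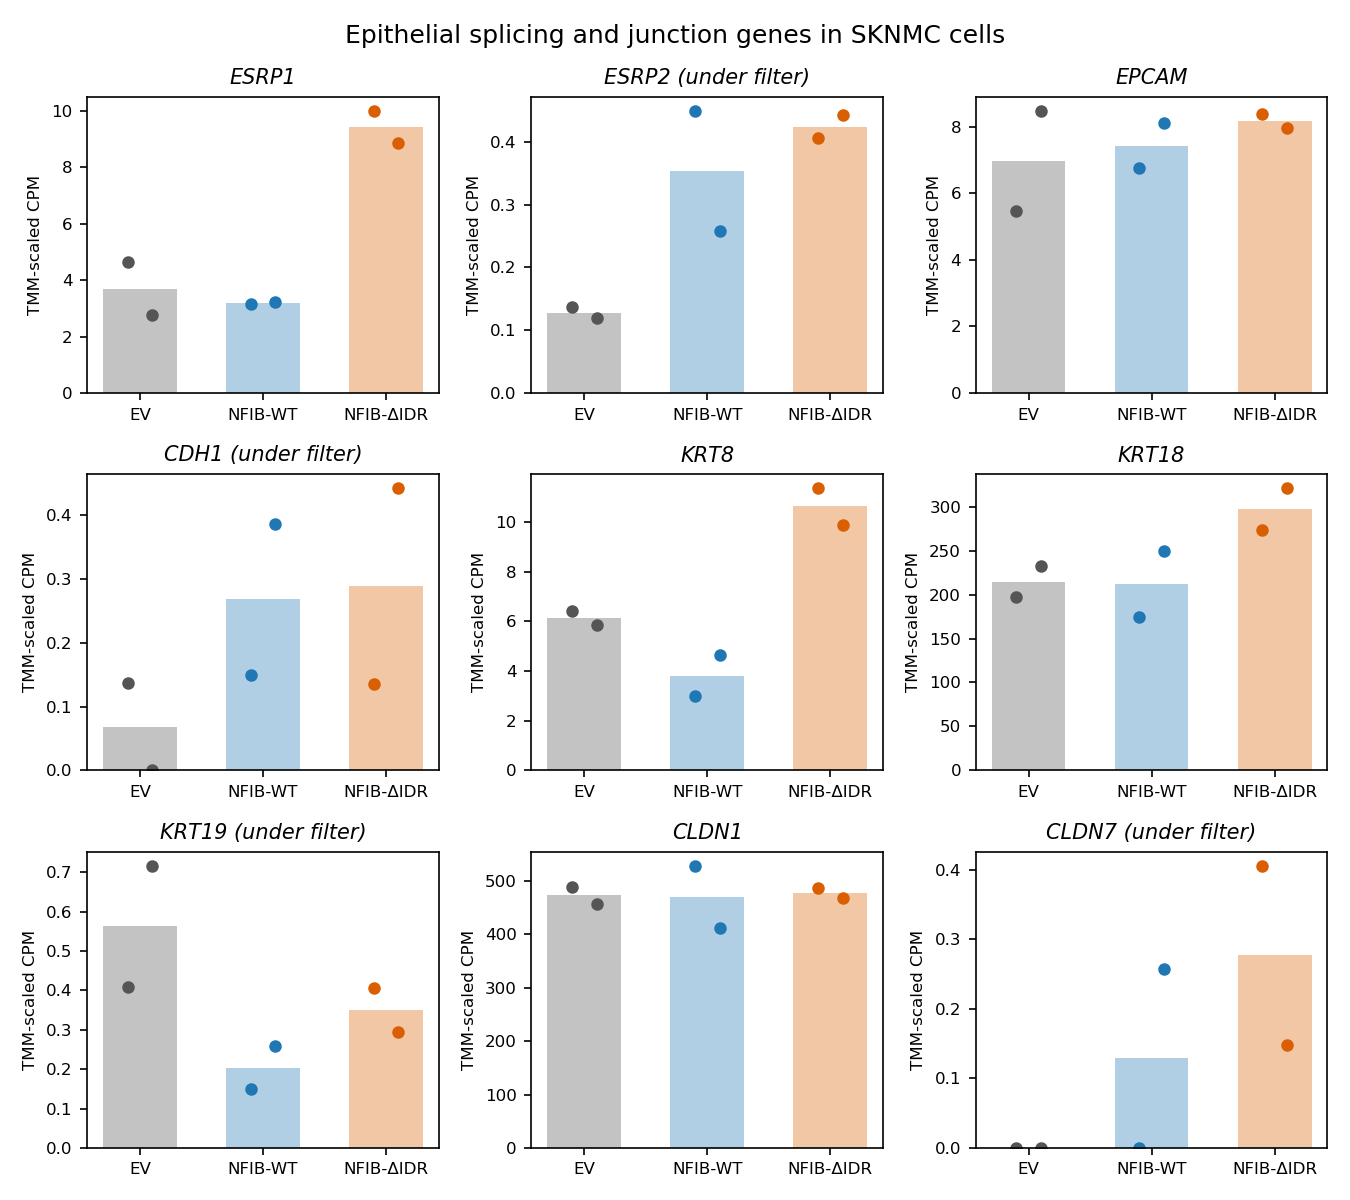
Transcript levels of the 9 genes in TMM-scaled CPM (linear axes from 0, a different range in each panel), with a point for each library and a bar at the mean of 2. ESRP1 and KRT8 are highest in both NFIB-ΔIDR libraries, CLDN1 stays between 411 and 529 CPM, and the 4 genes under the filter stay below 1 CPM.

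**Figure D2:**
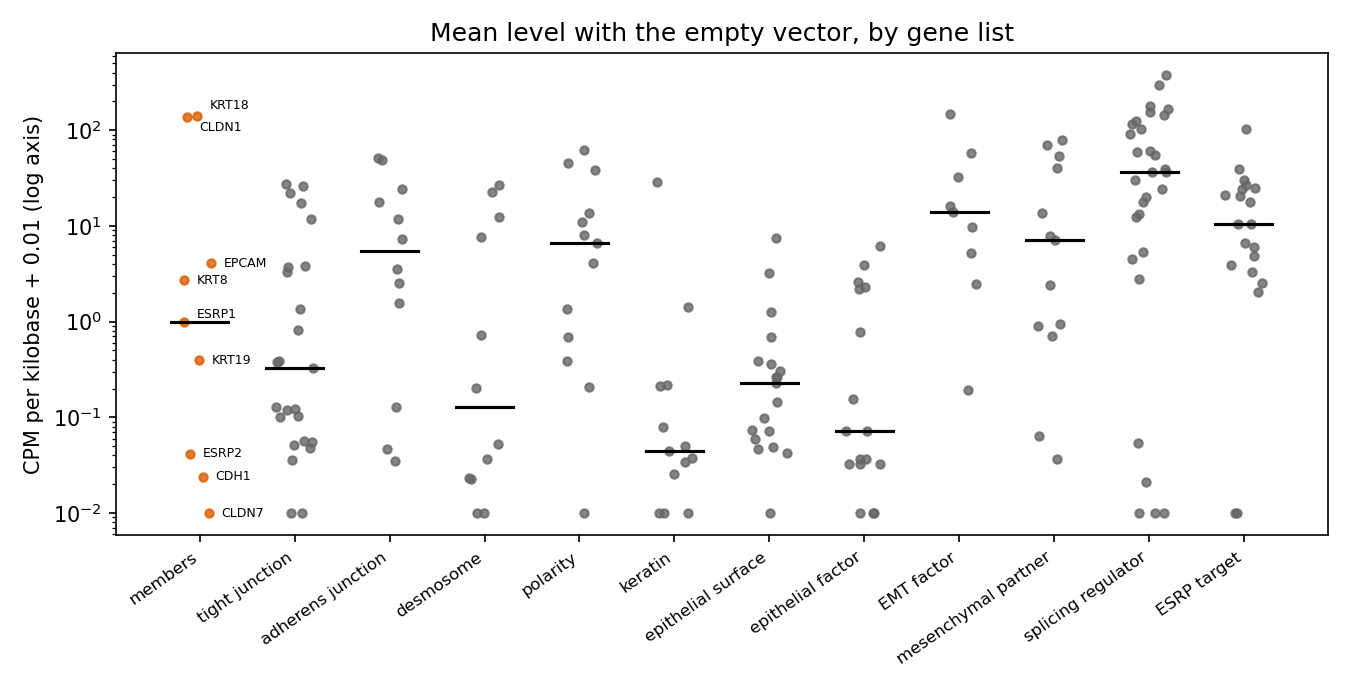
Mean level of each gene with EV in CPM per kilobase plus 0.01 (log axis), for the 9 members and for the 11 related lists, with a bar at each list's median. KRT18 and CLDN1 lie at the top of the axis while ESRP2, CDH1 and CLDN7 lie near its bottom.

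The first comparison asks what wild-type NFIB did to these transcripts. Of the 5 tested members 0 passed an adjusted p under 0.05 (edgeR's quasi-likelihood test with Benjamini-Hochberg adjustment), against 0.615% of all 13501 genes tested. By the rule that the methods of the study name, a fold of at least 1.5 with p under 0.05 (here unadjusted), KRT8 alone passed, against 3.88% of genes, and with DESeq2 0 members passed that rule. KRT8 had 6.42 and 5.86 CPM with EV and 3.0 and 4.64 CPM with NFIB-WT. Both NFIB-WT libraries lay below both EV libraries, with a log2 fold change of -0.66 ± 0.25 (SE), an unadjusted p of 0.0238, the only one under 0.05 among the 5, and an adjusted p of 0.293 (edgeR's quasi-likelihood test).

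The other tested members had overlapping libraries in this comparison. ESRP1 had 4.64 and 2.75 CPM with EV and 3.15 and 3.22 CPM with NFIB-WT, a log2 fold change of -0.19 ± 0.30. EPCAM had 5.46 and 8.48 CPM with EV and 6.75 and 8.11 CPM with NFIB-WT, a log2 fold change of 0.08 ± 0.23. Both EV libraries differed more from each other than the group means did. KRT18 was at 197 and 232 CPM with EV and at 175 and 250 CPM with NFIB-WT (-0.02 ± 0.15), and CLDN1 at 488 and 457 CPM against 529 and 411 CPM (-0.01 ± 0.11). For KRT18 and CLDN1 the NFIB-WT libraries lay on either side of the EV libraries. Without the second NFIB-WT library, the log2 fold change was -1.02 for KRT8, -0.295 for KRT18 and 0.166 for CLDN1. In that fit NFIB-WT has 1 library, whose spread is taken from the EV and NFIB-ΔIDR pairs, which lay closer together.

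The second comparison asks what NFIB did once its disordered region was removed. ESRP1 rose 2.59-fold with NFIB-ΔIDR, and it was the only one of the 5 tested members to pass, against 0.652% of all genes tested. It had 34 and 23 counts with EV and 74 and 60 counts with NFIB-ΔIDR, or 4.64 and 2.75 CPM against 10.0 and 8.86 CPM. Both NFIB-ΔIDR libraries were above both EV libraries, with a log2 fold change of 1.37 ± 0.25 (SE) and an adjusted p of 0.0376 (edgeR's quasi-likelihood test). The call was lost without any one of the EV or NFIB-ΔIDR libraries, with adjusted p from 0.159 to 0.421 and a log2 fold change of 1.02 to 1.78. DESeq2 gave a log2 fold change of 1.35 and an unadjusted p of 0.00118, and its independent filtering left ESRP1 without an adjusted p.

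KRT8 and KRT18, the keratin pair, had higher values in both NFIB-ΔIDR libraries than in both EV libraries. KRT8 had 11.4 and 9.89 CPM with NFIB-ΔIDR against 6.42 and 5.86 CPM with EV (log2 fold change 0.80 ± 0.21, adjusted p = 0.11). KRT18 had 274 and 321 CPM against 197 and 232 CPM (0.47 ± 0.15, adjusted p = 0.185). Neither passed the adjusted test. By the fold and unadjusted p rule, ESRP1 and KRT8 passed, against 4.77% of all genes.

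EPCAM and CLDN1 had no separation between these groups. EPCAM had 8.39 and 7.97 CPM with NFIB-ΔIDR, both within the range of the EV libraries (log2 fold change 0.22 ± 0.23, adjusted p = 0.719). CLDN1 had 488 and 469 CPM (0.02 ± 0.11, adjusted p = 0.965), again between both EV libraries. The median log2 fold change of the 5 tested members was 0.47, the value of KRT18, beside 0.00 over all genes tested. EPCAM and CLDN1 were level with EV within their SE, and the sign of both turned in an alternative fit. KRT18 (adjusted p = 0.0253) also passed when the replicate number was entered as a block. KRT8 and KRT18 both passed when only the EV and NFIB-ΔIDR libraries were fitted (adjusted p = 0.00177 and 6.46e-13). In that fit 1883 genes passed in all, beside 88 in the main fit.

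**Figure D3:**
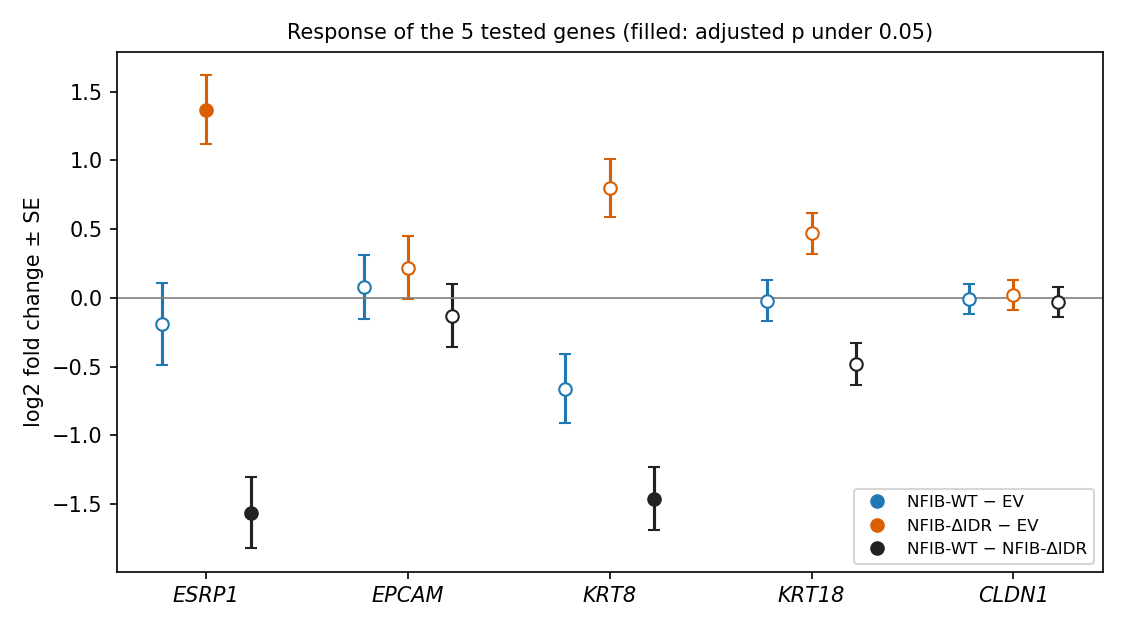
Log2 fold change with its SE for the 5 tested genes in the 3 comparisons, NFIB-WT minus EV, NFIB-ΔIDR minus EV and NFIB-WT minus NFIB-ΔIDR, with filled points for an adjusted p under 0.05. The filled points are ESRP1 in the comparisons that involve NFIB-ΔIDR and KRT8 between both constructs, and CLDN1 stays at 0 within its error.

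The third comparison sets both constructs against each other and is also the test of whether their effects differ, since both were compared with the same EV libraries. ESRP1 and KRT8 were lower in NFIB-WT than in NFIB-ΔIDR cells, and these 2 of 5 tested members passed the adjusted test, where 10.7% of all genes did. ESRP1 had 3.15 and 3.22 CPM with NFIB-WT against 10.0 and 8.86 CPM with NFIB-ΔIDR. That was a 2.96-fold higher level with NFIB-ΔIDR (log2 fold change -1.56 ± 0.26, adjusted p = 0.00511, edgeR's quasi-likelihood test), and no libraries overlapped. KRT8 had 3.0 and 4.64 CPM against 11.4 and 9.89 CPM, a 2.74-fold higher level with NFIB-ΔIDR (-1.46 ± 0.23, adjusted p = 0.00424).

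With DESeq2 the adjusted p was 0.0099 for ESRP1 and 0.00638 for KRT8, and by the fold and unadjusted p rule the same 2 genes passed, against 9.98% of all genes. Without the first or the second NFIB-ΔIDR library neither gene passed, with adjusted p of 0.0802 and 0.0632 for ESRP1 and 0.0727 and 0.0515 for KRT8. The log2 fold changes then were -1.468 and -1.644 for ESRP1 and -1.349 and -1.548 for KRT8. KRT18 was also separated, at 175 and 250 CPM against 274 and 321 CPM, and missed the adjusted test (-0.48 ± 0.15, adjusted p = 0.0688). With the replicate number as a block KRT18 passed (adjusted p = 0.00429). EPCAM (-0.13 ± 0.23, adjusted p = 0.748) and CLDN1 (-0.03 ± 0.11, adjusted p = 0.905) did not differ beyond their spread.

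The ratio of both keratins also had different values in the 3 groups. Per kilobase, KRT18 exceeded KRT8 by 45.4 and 58.5 times with EV, by 86.0 and 79.6 times with NFIB-WT and by 35.5 and 47.9 times with NFIB-ΔIDR. Both NFIB-WT libraries had a larger excess of KRT18 than any other library, and the EV and NFIB-ΔIDR libraries overlapped. This ratio was not tested. Both keratins have many processed copies in the genome, 51 annotated pseudogenes for KRT8 and 67 for KRT18, and no source used here states how reads shared with them were counted.

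ABCA13, an ABC transporter, had the profile nearest to that of ESRP1 over the 6 libraries. Likeness was the root mean square difference of log2 CPM (plus 0.5), each centred on its own mean, over 13453 genes. It was 0.126 for ABCA13, 0.169 for ANKRD18CP and 0.189 for ZNF560. ABCA13 had 31.4 and 23.9 CPM with EV, 22.5 and 20.7 CPM in NFIB-WT cells and 61.7 and 56.4 CPM in NFIB-ΔIDR cells. Nearest to KRT8 were LOC101926975 (0.0746), HIST1H1T (0.118), a histone H1 gene, and TRIM49B (0.125). HIST1H1T had 4.64 and 4.78, 2.70 and 3.99, and 10.3 and 9.45 CPM in the 3 groups.

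Related genes were then described from 11 lists. They covered junctions, polarity, keratins, an epithelial surface list (not all of it surface proteins) and transcription factors of either state. The rest were mesenchymal partners, splicing regulators and transcripts whose splicing ESRP proteins are known to direct. In all, 111 of the 180 listed genes passed the filter. With NFIB-WT against EV 3 passed as higher and 1 as lower, with NFIB-ΔIDR against EV 3 as higher and 0 as lower. Between the constructs 8 were higher and 8 lower in NFIB-WT cells. These shares were 3.6%, 2.7% and 14.4%, beside 0.615%, 0.652% and 10.7% of all genes. In a fit of the EV and NFIB-WT libraries alone, 0 related genes passed. The calls of CDH3, FAP, RALGPS2 and GRHL3 with NFIB-WT against EV, described below, were thus all lost in that fit.

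Epithelial transcription factors were the list with the largest share of tested members passing between the constructs. Of 6 tested, GRHL3, TP63, TFAP2A and GRHL1 passed as lower in NFIB-WT than in NFIB-ΔIDR cells and 0 passed as higher. That was 66.7%, beside 10.7% of all genes, with a median log2 fold change of -0.86. FOXA1 and KLF5 did not pass. FOXA1 went the other way, at 14.0 and 15.8 CPM with NFIB-WT against 12.0 and 9.74 CPM with NFIB-ΔIDR (0.45, adjusted p = 0.105, edgeR's quasi-likelihood test). KLF5 was nearly level (-0.06). GRHL3, a grainyhead factor of surface epithelia, had 7.64 and 7.89 CPM with EV, 2.85 and 3.61 CPM in NFIB-WT cells and 10.8 and 10.6 CPM in NFIB-ΔIDR cells. It fell with NFIB-WT against EV (log2 fold change -1.25, adjusted p = 0.0338) and differed between both constructs (-1.72, adjusted p = 0.00126, edgeR's quasi-likelihood test). The GRHL3 call against EV was lost with DESeq2 (adjusted p = 0.122) and without any one of the EV or NFIB-ΔIDR libraries (0.127 to 0.347), at a log2 fold change of -1.27 to -1.23. TP63, the p63 factor of basal epithelia, had 16.5 and 17.3, 18.0 and 17.8, and 34.9 and 40.2 CPM in the same order. TP63 thus rose with NFIB-ΔIDR against EV (1.15, adjusted p = 0.00489), a call lost without any one of those 4 libraries (0.0534 to 0.186).

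TFAP2A, which encodes AP-2α, had 27.8 and 24.6 CPM with EV, 15.2 and 17.4 CPM in NFIB-WT cells and 25.6 and 28.9 CPM in NFIB-ΔIDR cells (-0.74 between the constructs, adjusted p = 0.00945). The TFAP2A call was lost in 2 of 15 alternatives. GRHL1 had 3.003 and 2.51, 2.70 and 2.32, and 4.47 and 5.46 CPM (-0.98, adjusted p = 0.0456). The GRHL1 call was lost in 7 of 15 alternatives, among them DESeq2 (adjusted p = 0.327) and leaving out either EV, either NFIB-ΔIDR or the second NFIB-WT library. GRHL3 was lowest in both NFIB-WT libraries and highest in both NFIB-ΔIDR libraries. Against EV, neither TFAP2A with NFIB-WT (adjusted p = 0.0602) nor GRHL1 with NFIB-ΔIDR (adjusted p = 0.168) passed.

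**Figure D4:**
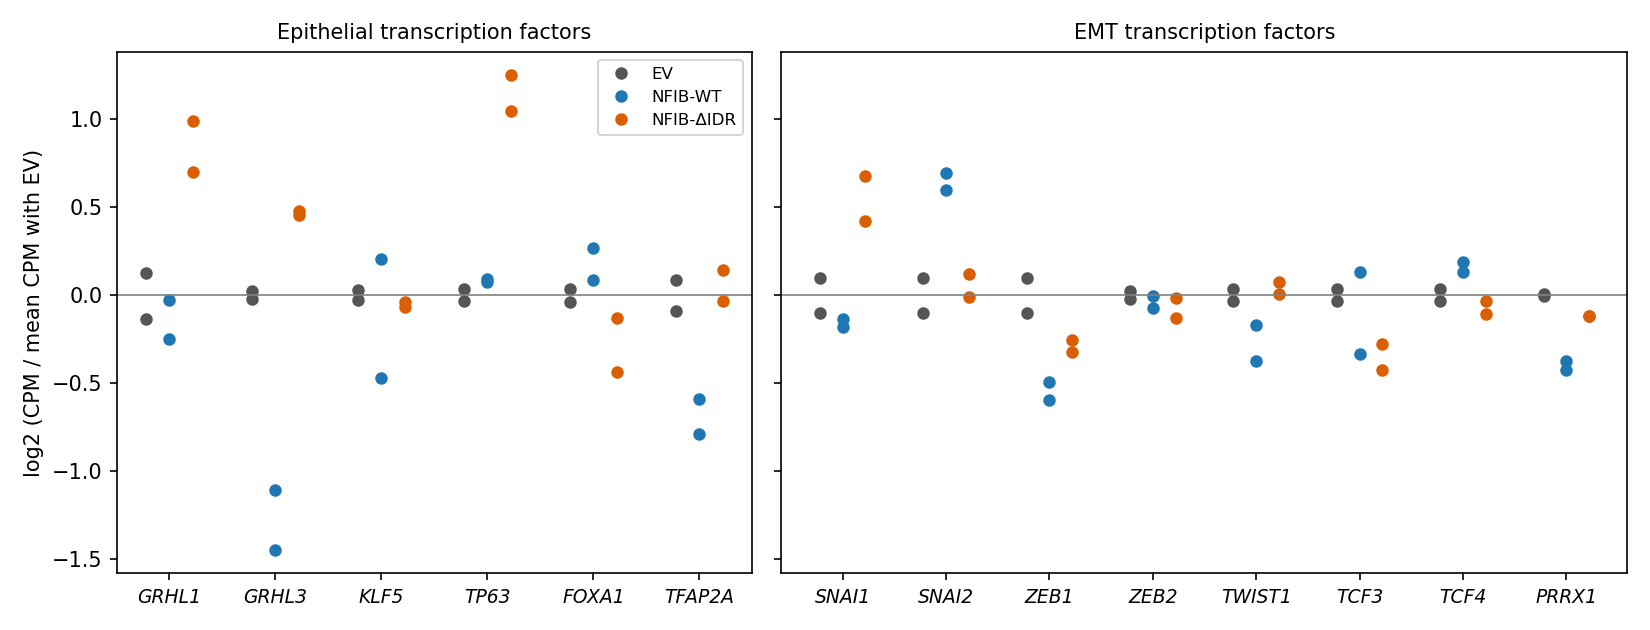
Level of each tested epithelial (left) and EMT (right) transcription factor in every library, as log2 of its CPM over the mean CPM with EV (0 is that mean). Among the epithelial factors, GRHL3 and TFAP2A lie below 0 in both NFIB-WT libraries, and GRHL3, TP63 and GRHL1 lie above 0 in both NFIB-ΔIDR libraries. FOXA1 goes the other way, above 0 in both NFIB-WT libraries and below 0 in both NFIB-ΔIDR libraries.

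Most transcription factors of EMT were well expressed alongside these genes. With EV, ZEB2 stood at 661 and 682 CPM, TWIST1 at 251 and 240 CPM and ZEB1 at 38.1 and 43.6 CPM. TCF4 had 156 and 149 CPM, TCF3 148 and 155 CPM, PRRX1 66.2 and 65.7 CPM and SNAI1 3.96 and 4.54 CPM. SNAI2, which encodes Slug, was the only one of 8 tested EMT factors to pass, and it did so between the constructs. It had 21.7 and 18.9 CPM with EV, 30.6 and 32.7 CPM in NFIB-WT cells and 20.2 and 22 CPM in NFIB-ΔIDR cells (0.59, adjusted p = 0.0166). The SNAI2 call was lost in 3 of 15 alternatives. Its share of the list, 12.5%, lay beside 10.7% of all genes. ZEB1 was at 27.0 and 29.0 CPM with NFIB-WT and at 34.2 and 32.6 CPM with NFIB-ΔIDR, below EV in all 4 libraries, without passing.

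Among junction genes few passed. Between the constructs the shares were 8.33% of tight and 11.1% of adherens junction genes, beside 10.7% of all genes. With NFIB-WT against EV, adherens junction genes gave 11.1%, beside 0.615%. Of 12 tested tight junction genes, JAM3, a junctional adhesion molecule, was higher in NFIB-WT than in NFIB-ΔIDR cells (0.48, adjusted p = 0.00916), and in both comparisons with EV 0 passed. The JAM3 call was lost in 2 of 15 alternatives. Of 9 adherens junction genes, CDH3, which encodes P-cadherin, had 5.46 and 6.45 CPM with EV, 12.6 and 11.7 CPM in NFIB-WT cells and 3.38 and 2.81 CPM in NFIB-ΔIDR cells. CDH3 rose with NFIB-WT against EV (1.02, adjusted p = 0.0376) and was higher in NFIB-WT than in NFIB-ΔIDR cells (1.96, adjusted p = 0.00082), opposite in direction to ESRP1 and KRT8. The CDH3 call against EV was lost with DESeq2 (adjusted p = 0.24) and without any one of the EV or NFIB-ΔIDR libraries (0.127 to 0.393). None of the 6 desmosome genes tested passed in any comparison, with PKP4 at 122 to 141 CPM and DSP, desmoplakin, at 76.0 to 123 CPM. None of the 10 polarity genes passed, with DLG1 at 335 to 388 CPM and MPP5 (also PALS1) at 250.5 to 300.8 CPM.

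Of 13 other keratins listed, 3 passed the filter, and KRT10, a keratin of differentiating epidermis, was lower in NFIB-WT than in NFIB-ΔIDR cells. KRT10 had 58.8 and 63.9 CPM with EV, 43.2 and 62.0 CPM in NFIB-WT cells and 91.9 and 90.4 CPM in NFIB-ΔIDR cells (-0.79, adjusted p = 0.00794). The KRT10 call was lost in 2 of 15 alternatives. Its share of the tested keratins, 33.3%, stood beside 10.7% of all genes. KRT20, also among the tested keratins, passed the filter only through its NFIB-ΔIDR libraries. None of the 6 tested genes of the epithelial surface list passed. CDS1, an enzyme of phospholipid synthesis and not a surface protein, was at 27.6 to 38.1 CPM and CD24 at 5.41 to 8.60 CPM.

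Among 18 tested transcripts that ESRP proteins are known to splice, 1 rose with NFIB-WT against EV, 0 differed with NFIB-ΔIDR and 2 were higher in NFIB-WT than in NFIB-ΔIDR cells. RALGPS2 had 172 and 150 CPM with EV, 305 and 254 CPM in NFIB-WT cells and 116 and 113 CPM in NFIB-ΔIDR cells (0.79 against EV, adjusted p = 0.0114, and 1.29 between constructs, adjusted p = 0.000248). The RALGPS2 call against EV was lost without any one of the EV or NFIB-ΔIDR libraries (adjusted p from 0.0754 to 0.31). ITGA6, the integrin alpha 6 subunit, was higher in NFIB-WT than in NFIB-ΔIDR cells (0.53, adjusted p = 0.0272). The 2 that did not pass the filter, named after their values were seen, were FGFR2 and CD44, with at most 1 count in any library. Counts per gene hold no isoforms, so splicing itself was not measured. Of 25 tested splicing regulators, HNRNPM alone passed, lower in NFIB-WT than in NFIB-ΔIDR cells (-0.46, adjusted p = 0.0434). Between the constructs 11.1% of the tested ESRP transcripts and 4.0% of the splicing regulators passed, beside 10.7% of all genes. With NFIB-WT against EV, 5.56% of the ESRP transcripts passed, beside 0.615%. The calls of ITGA6 and HNRNPM were lost in 6 and 5 of 15 alternatives.

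The mesenchymal partners moved in both directions. Of 11 tested, 9.09% passed with NFIB-WT against EV, 18.2% with NFIB-ΔIDR against EV and 45.5% between the constructs. The shares of all genes were 0.615%, 0.652% and 10.7%. FAP, fibroblast activation protein, was higher with NFIB-WT than with EV (0.69, adjusted p = 0.0253), while FN1, fibronectin (0.71, adjusted p = 0.0105), and ACTA2, smooth muscle actin (1.93, adjusted p = 0.0223), were higher with NFIB-ΔIDR than with EV. Each of these calls was lost without any one of the EV or NFIB-ΔIDR libraries, with adjusted p of 0.119 to 0.344 for FAP, 0.2 to 0.303 for FN1 and 0.2 to 0.321 for ACTA2, and that of FAP also with DESeq2 (0.104). Between the constructs FAP (0.71, adjusted p = 0.0048), COL1A2 (0.51, adjusted p = 0.017) and VIM (0.53, adjusted p = 0.0214) were higher with NFIB-WT. FN1 (-0.45, adjusted p = 0.0136) and COL1A1 (-1.08, adjusted p = 0.0156) were lower. These calls between the constructs were lost in 2 of 15 alternatives for FAP, COL1A2 and FN1, and in 3 for VIM and COL1A1. VIM, vimentin, was named after its values were seen. All of these adjusted p are from edgeR's quasi-likelihood test.

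Markers of other cell types were summed in each library. Over 9 listed squamous markers, of which 2 passed the filter, the sum was 75.9 to 81.7 CPM with EV, 61.5 to 79.9 CPM with NFIB-WT and 127 to 131 CPM with NFIB-ΔIDR. It moved in the same direction as ESRP1 and KRT8, and was made almost wholly of TP63 and KRT10, with KRT14, KRT1 and IVL at 0 or 1 count in every library. The 10 fibroblast markers summed to 435 to 451 CPM with EV, 579 to 593 CPM with NFIB-WT and 401 to 409 CPM with NFIB-ΔIDR, and the 11 Ewing sarcoma markers to 3003 to 3016, 3275 to 3301 and 2805 to 2870 CPM. CCND1 alone gave means of 1257, 1580 and 1182 CPM of the Ewing sarcoma sum, while PRKCB, BCL11B, STEAP1 and EWSR1 had lower means with NFIB-WT than with EV. The 16 epithelial markers summed to 704 to 709, 679 to 719 and 794 to 820 CPM, and held the 9 members. The 6 endothelial markers summed to at most 3.90 CPM in any library. Of haematopoietic markers, PTPRC was at 251 to 312 CPM, with CD3E, CD14 and LYZ at 0 to 9 counts in each library. The part of these markers in the results was not tested.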

How the data were processed

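RNA-seq libraries of SKNMC cells were prepared from total RNA with the CORALL kit and sequenced on a NextSeq 500. Per the labels and the submitters' processing notes, the authors converted reads with CASAVA 2.19, aligned them to hg19 with STAR 2.4.0h and counted fragments per RefSeq gene with featureCounts, and the deposited values are raw counts without normalization. No source used here states whether strand or molecular identifiers entered the counting.

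Low genes were removed with filterByExpr of edgeR 4.0.16 in R 4.3.3 (at least 10 counts, and 15 in total). After TMM scaling the quasi-likelihood test was applied, with all 6 libraries in 1 fit, a mean per group, and Benjamini-Hochberg adjustment over the 13501 genes tested of 22604. CPM were taken relative to the TMM-scaled library size over the tested genes. The study's own rule (DESeq2, a fold of at least 1.5, p under 0.05) was run as an alternative with DESeq2 1.42.0. The common biological coefficient of variation was 0.0776. Replicates are separate samples in the labels and biological duplicates in the methods of the study. Levels between genes were compared per kilobase of the listed gene length. Other scalings, filters, fits of 2 groups, a replicate block, robust estimation and leaving out each library were alternatives. The steps were run on simulated data with the same dispersion for every gene and library. The wider spread of the NFIB-WT pair was not part of that simulation.

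The members and lists were chosen with earlier results of these data known. Named genes were the 9 members, NFIB, EMT factors at 1 CPM or more, up to 4 list members with the smallest p among those passing (otherwise the 2 most abundant), and the 3 tested genes nearest in profile to a member that passed. Gene positions came from lifted GENCODE annotation on hg19, the deposited positions being 2000-base windows at transcription starts. Promoters are from RefSeq (GRCh38.p14), and the set used here held none for ESRP1, ESRP2, EPCAM, CDH1, KRT18 and KRT19. Plots used Python 3.11.15 and matplotlib 3.10.9.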

Additional observations from a re-analysis of the deposited data

How the results depend on the processing

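With 2 libraries per group, single libraries decided most calls. Of the members, the number called was 0 to 3 over leaving out each library for NFIB-WT against EV (0 with all libraries), 0 to 3 for NFIB-ΔIDR against EV (1) and 0 to 4 for NFIB-WT against NFIB-ΔIDR (2). For the related genes these ranges were 0 to 35 (4), 0 to 27 (3) and 4 to 47 (16), and for all genes 9 to 3051 (83), 4 to 1853 (88) and 109 to 4405 (1446). The cause was not tested. A group left with 1 library was assumed to vary like the others. Leaving out the first or second NFIB-WT library raised the counts for all genes to 514 and 3051 against EV.

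For NFIB-ΔIDR against EV, members called were 0 with DESeq2, 3 without a filter, 3 in a fit of the 2 groups, and 2 by the fold and unadjusted p rule in either tool. For NFIB-WT against EV that rule gave 1 in edgeR. Related genes called for NFIB-WT against EV were 1 with DESeq2, 13 without a filter, 0 with 2 groups, and 8 (edgeR) and 9 (DESeq2) by the fold rule. For NFIB-ΔIDR against EV they were 13 without a filter, 28 with 2 groups, and 10 and 6 by the fold rule, and between the constructs 27 without a filter. For all genes, the counts for NFIB-WT against EV were 541 without a filter, 13 with 2 groups, and 524 and 251 by the fold rule. For NFIB-ΔIDR against EV they were 550, 1883, 644 and 301. Between the constructs they were 725 with DESeq2, 2280 without a filter, 680 with 2 groups and 935 by the fold rule in DESeq2.

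With the replicate number as a block, members called were 0, 2 and 3 in the 3 comparisons, related genes 8, 7 and 25, and all genes 188, 241 and 2092. Deviations of libraries with the same number correlated at 0.016 (EV and NFIB-ΔIDR), 0.153 (EV and NFIB-WT) and 0.054 (NFIB-ΔIDR and NFIB-WT), so the replicate block rests on shared numbers only.

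Directions turned only in members with small changes, when a library was left out. For NFIB-WT against EV the log2 fold change ranged from -0.537 to 0.217 for ESRP1, -0.179 to 0.453 for EPCAM, -0.295 to 0.217 for KRT18 and -0.200 to 0.166 for CLDN1. For NFIB-ΔIDR against EV it ranged from -0.050 to 0.582 for EPCAM and -0.030 to 0.065 for CLDN1, and for CLDN1 between the constructs from -0.215 to 0.148. ESRP1 between NFIB-ΔIDR and EV kept its sign in every alternative run. No scaling moved the median of all genes by more than 0.025. Depth limits CDH1, ESRP2, KRT19 and CLDN7 to a statement of low counts.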

Other observations

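KRT80, a keratin below the filter and named after its values were seen, had 7 and 7 counts in the NFIB-WT libraries, 0 and 1 with EV and 0 and 0 with NFIB-ΔIDR. KRT20, a keratin of gut and urothelium also named after its values were seen, had 1 and 5, 5 and 6, and 11 and 14 counts with EV, NFIB-WT and NFIB-ΔIDR. It passed the filter only through its NFIB-ΔIDR libraries, so its tests with that group are not independent of the filter. It did not pass the test in any comparison.

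TJP1, which encodes the tight junction scaffold ZO-1, was listed with 4 to 12 counts in each library, or 0.590 to 1.80 CPM, whereas OCLN (14.8 to 22.4 CPM) and F11R (12.5 to 19.7 CPM) were measured at higher levels. CDH2, the N-cadherin often read as the mesenchymal counterpart of CDH1, had at most 2 counts in any library, and CDH11 had 477 to 548 CPM. Neither of the classical cadherins CDH1 and CDH2 was thus detected above a few counts in these cells. These genes were named after their values were seen.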
